A study of Caenorhabditis elegans with 8 samples.

Results

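The neuropeptide gene flp-11 and 4 genes for receptors reported to respond to its peptides, dmsr-1, frpr-3, npr-4 and npr-22, were followed in whole Caenorhabditis elegans larvae. These 5 genes were taken by name from a count table of 46422 rows with a gene name, and all 5 were among the 17522 genes with enough counts to be tested. Strain HBR227, genotype aptf-1(gk794), was set against strain N2, the laboratory wild type, with 4 libraries each, described by the submitters as biological replicates and lettered A to D. Eggs of both strains were freed by hypochlorite and kept for 48 hours in M9 buffer, a salt solution without food, in which hatched larvae stop at the first larval stage (L1 arrest). No further treatment was given to either strain. How many larvae went into a library, and whether HBR227 had been outcrossed, was not stated in the labels. Whether each letter stands for its own culture was not stated either, so the p-values below speak only for the spread among these libraries, part of which may be technical.

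RIS is a single interneuron that makes GABA and neuropeptides and brings on sleep when it is active. The transcription factor APTF-1, of the AP-2 family, is needed in RIS for the expression of flp-11, whose FMRFamide-like peptides are released from RIS to quiet the animal. FMRFamide-like peptides are short, end in an amidated arginine and phenylalanine, and act through G protein-coupled receptors on the cells that receive them. Sleep of this kind occurs during moults, under stress and in starved, arrested larvae.

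Total counts ran from 48460936 to 65016907 in HBR227 libraries and from 43567457 to 56437348 in N2 libraries. HBR227 A stood apart from the other 7 libraries on the first principal component of log2 expression (46% of the variance), at -74.3 against -9.86 to 28.3. Markers of neurons (20 of 20), body wall muscle (4 of 4), intestine (4 of 4), hypodermis (4 of 4) and germline (3 of 3) were detected, none of them at 0. Of the 20 neuron markers 5 were called higher and none lower, and without HBR227 A 11 higher and 1 lower. These fits called 21.5% and 44.3% of all genes. Among the other lists hlh-1 of muscle (-0.30, a call lost in 9 of 18 alternative fits) and dpy-7 of hypodermis (-0.89) fell and ges-1 of intestine rose (0.44). Without HBR227 A, elt-1 of hypodermis (-0.49, adjusted p = 2.2e-06, edgeR) and elt-7 of intestine (-0.32, adjusted p = 0.00577) were called lower as well. No germline marker was called by edgeR, by DESeq2 or by limma voom (0, 2 and 0 with an unadjusted p under 0.05). The adult yolk protein genes vit-1 to vit-6, of which vit-6 rose and, without HBR227 A, vit-1 was called lower (-0.44, adjusted p = 0.0345, edgeR), summed to 9.90 to 13 CPM (counts per 1000000, scaled by TMM) in HBR227 and 7.87 to 8.87 CPM in N2. The mutated gene itself, aptf-1, had 33, 69, 56 and 52 counts in HBR227 A to D and 161, 196, 182 and 234 counts in N2 A to D. HBR227 thus held 26.3% of the N2 level in CPM, and no library of one strain reached the range of the other. The log2 fold change, HBR227 minus N2, was -1.92 ± 0.16 (SE), with an adjusted p of 1.1e-04 in edgeR's quasi-likelihood test, and -1.80 without HBR227 A.

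The peptide gene fell, 2 receptor genes rose by much less, and 2 receptor genes did not pass the test. In HBR227 larvae flp-11 was at 29.4% of its N2 level, npr-22 was 1.48 times and dmsr-1 1.19 times as high, and the mean ratio was 1.02 for npr-4 and 0.939 for frpr-3. Of the 5 genes, 3 were thus called at an adjusted p under 0.05, against 21.5% of all genes tested (11.2% higher and 10.4% lower in HBR227). For the same 3 genes all libraries of one strain lay above all libraries of the other, which held for 28.9% of all genes tested. Without HBR227 A the same 3 genes were called in the same directions, in a fit that called 44.3% of all genes.

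**Figure D1:**
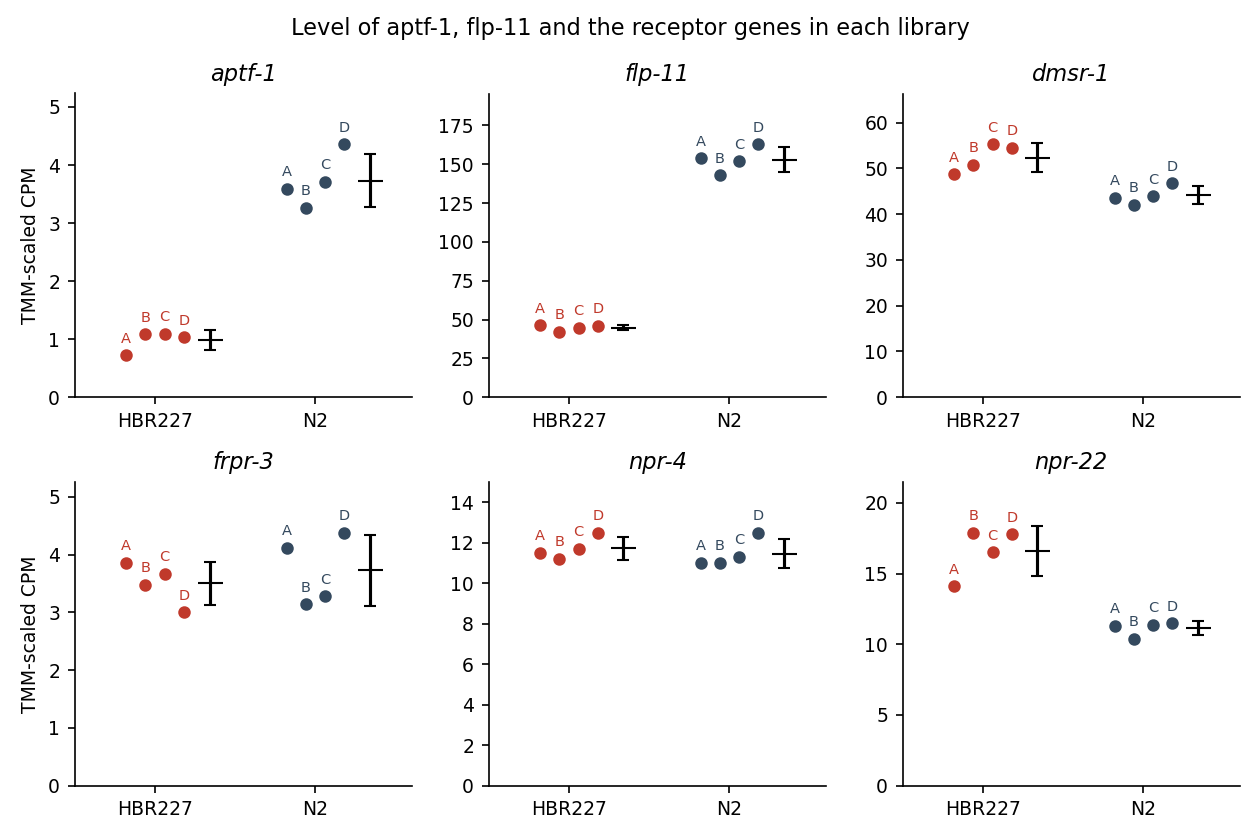
TMM-scaled CPM of aptf-1, flp-11 and the 4 receptor genes in each library of HBR227 (red, left) and N2 (dark, right). Points are libraries with their replicate letter, bars show the mean and SD (n = 4 each), and each panel has its own axis from 0. The strains do not overlap for aptf-1, flp-11, dmsr-1 and npr-22, and they overlap for frpr-3 and npr-4.

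The ligand gene flp-11 (WBGene00001454) lies on chromosome X from 4677334 to 4678129 on the minus strand of WBcel235, is protein-coding, has 3 annotated transcripts, and encodes a precursor of up to 110 residues that is cut into the active peptides. It had 2128, 2704, 2294 and 2310 counts in HBR227 A to D and 6897, 8600, 7435 and 8734 counts in N2 A to D. In CPM these were 46.4, 42.2, 44.8 and 45.9 in HBR227 and 154, 143, 152 and 163 in N2. The HBR227 libraries lay close together, with a coefficient of variation of 4.17% in HBR227 and 5.36% in N2. The log2 fold change was -1.77 ± 0.06 (SE; 95% interval -1.89 to -1.64; adjusted p = 5.7e-07, edgeR). No other gene had a smaller p, although flp-11 ranked only 37th by the size of the fall. HBR227 A, which stood apart in its transcriptome, had the highest flp-11 level of its strain, and without it the log2 fold change was -1.78 (adjusted p = 4.2e-13). The transcript was still well detected in each mutant library. In whole larvae, fewer cells that make a transcript and less of it per cell cannot be told apart.

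Genes next to flp-11 gave no fall that passed the test. Within 25 kb of the gene, 7 other genes were tested, with log2 fold changes from -0.36 to 0.36. Over all genes tested, 11.2% rose and 10.4% fell, and of these 7 genes 2 rose and none fell. Of these, tmem-135 on the plus strand overlaps the end of flp-11 over 2.29% of its exon length, and it rose (0.36 ± 0.10, adjusted p = 0.0343, edgeR), a call lost in 10 of 18 alternative fits. Whether the counting used strand was not stated, so reads from this overlap could belong to either gene.

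A list of 5 genes made in RIS, chosen without aptf-1 and flp-11, gave no call under the reported scaling. Of 5 tested, none passed in edgeR, DESeq2 or limma voom, none had an unadjusted p under 0.05 in any of these tools, and the median log2 fold change was 0.01. Over all genes tested these tools called 21.5%, 24.1% and 22.3%, so the lack of a call among 5 genes does not set this list apart. The GABA-synthesising enzyme gene unc-25, used by all GABA neurons, had 49.9, 75.6, 75.5 and 76.6 CPM in HBR227 A to D and 73.9, 74.2, 74.2 and 70.8 CPM in N2 A to D. Apart from HBR227 A, the mutant libraries were just above the N2 range. The homeobox gene lim-6, which helps set the identity of RIS and a few other neurons, averaged 4.42 ± 0.979 CPM in HBR227 and 5.33 ± 0.371 CPM in N2 (SD, n = 4 each; log2 fold change -0.27 ± 0.16, adjusted p = 0.272). Its value was -0.12 without HBR227 A. With 20 pan-neuronal genes as the scale, whose counts come mostly from 5 peptide processing and release genes, lim-6 was called lower, at -0.50 (adjusted p = 0.0323, edgeR). The vesicular GABA transporter gene unc-47 had a log2 fold change of 0.10 ± 0.14 (0.23 without HBR227 A), its partner unc-46 one of 0.01 ± 0.16, and the receptor-like gene srsx-18 one of 0.19 ± 0.29. The srsx-18 level was low, averaging 0.721 CPM in HBR227 and 0.641 CPM in N2, and its 95% interval was wide (-0.46 to 0.84). The summed level of the 5 genes was 63.7 CPM in HBR227 A, 95.2 to 97.8 CPM in HBR227 B to D and 90.6 to 94.0 CPM in N2. Most of this sum is unc-25, which other GABA neurons also make, so it does not measure RIS alone.

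Among the FLP neuropeptide genes, which share the RFamide ending and a similar precursor layout, flp-11 changed its place. Levels were compared per length, as CPM per kb of annotated exon. On this scale flp-11 stood at 62.7, 57.0, 60.5 and 62.0 in HBR227 A to D and at 207, 193, 205 and 219.7 in N2 A to D. It ranked 24th to 26th of 31 FLP genes in the HBR227 libraries and 6th in every N2 library. In N2 its mean level lay between those of flp-15 (286 CPM per kb) and flp-22 (175 CPM per kb), and in HBR227 between those of flp-13 (65.6 CPM per kb) and flp-32 (56.1 CPM per kb).

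Seen as a share, flp-11 gave 1.57% to 1.62% of the summed FLP level in CPM in HBR227 libraries and 6.12% to 6.31% in N2 libraries. The sum over all FLP genes was higher in the mutant, at 2666 to 2904 CPM in HBR227 and 2305 to 2578 CPM in N2. The other FLP genes together stood at 2624 to 2857 CPM in HBR227 and 2162 to 2415 CPM in N2. Of the 29 other FLP genes tested, 15 rose and none fell, and their median log2 fold change was 0.26, against -0.00 over all genes tested. The share called was 51.7%, against 21.5% of all genes tested. The 4 with the smallest p were flp-10 (1.06 ± 0.11), flp-12 (0.41 ± 0.06), flp-18 (0.41 ± 0.06) and flp-27 (0.42 ± 0.06). Without HBR227 A, 24 rose and 1 fell, in the fit that called 44.3% of all genes. The count depended on the scale. With total counts alone 10 rose and 1 fell (median 0.15). With 20 pan-neuronal genes as the scale 4 rose and 1 fell (median 0.02), and with 15 of them 4 rose and none fell (median 0.17). These scales moved all genes: the median of all 17522 was -0.11, -0.23 (20 genes) and -0.08 (15 genes), below the FLP median each time. Of all genes 1174, 550 (20 genes) and 926 (15 genes) rose, and 3111, 4912 and 1983 fell.

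**Figure D2:**
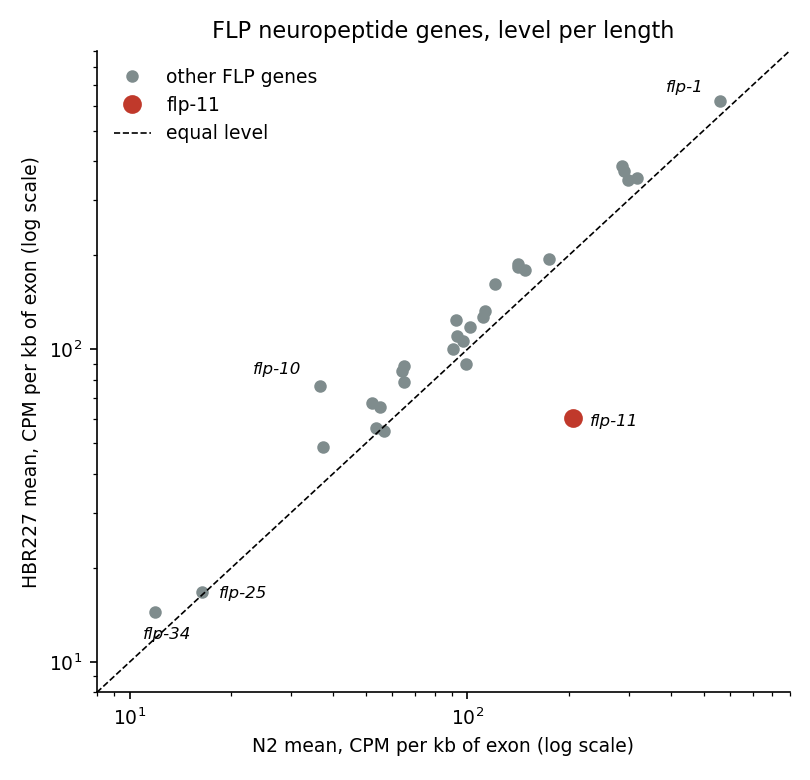
Mean level per length of 30 FLP genes in HBR227 (vertical axis) and N2 (horizontal axis), both in CPM per kb of exon on log scales. The dashed line marks equal levels, and flp-23, near 0 in both strains, is not drawn. The red point, flp-11, lies far below the line at 60.5 in HBR227 and 206 in N2, while 27 of the 29 other FLP genes tested had a log2 fold change above 0.

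The receptor gene with the largest rise was npr-22 (WBGene00022004, chromosome IV, 8559432 to 8563161, plus strand; protein-coding, up to 434 residues), which encodes a receptor of the neuropeptide Y and tachykinin type that responds to FLP-7 and LURY-1 peptides as well. It had 646, 1144, 847 and 894 counts in HBR227 A to D and 507, 629, 560 and 617 counts in N2 A to D. In CPM these were 14.1, 17.9, 16.5 and 17.8 in HBR227 and 11.3, 10.4, 11.4 and 11.5 in N2. All HBR227 libraries exceeded all N2 libraries, and HBR227 A was the lowest of its strain. The log2 fold change was 0.57 ± 0.09 (SE; 95% interval 0.36 to 0.78; adjusted p = 0.00251, edgeR), and 0.64 without HBR227 A (adjusted p = 1.0e-06).

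The gene dmsr-1 (WBGene00010191, chromosome V, 11438764 to 11441638, plus strand; protein-coding, up to 510 residues) encodes a receptor of the myosuppressin type that also responds to FLP-13, the sleep peptide of the ALA neuron. It had 2233, 3250, 2833 and 2740 counts in HBR227 A to D and 1955, 2533, 2153 and 2510 counts in N2 A to D. In CPM these were 48.7, 50.8, 55.3 and 54.5 in HBR227 and 43.6, 42.1, 43.9 and 46.8 in N2, so the strains lay apart but close, at 48.7 CPM in HBR227 A and 46.8 CPM in N2 D. The log2 fold change was 0.25 ± 0.06 (SE; 95% interval 0.11 to 0.39; adjusted p = 0.0190, edgeR). This call was lost with total counts alone as the scale (0.14, adjusted p = 0.110), and when scaled by 20 pan-neuronal genes (0.02, adjusted p = 0.845) or by the 15 of them outside peptide processing (0.17, adjusted p = 0.0836). It was also lost when HBR227 C (adjusted p = 0.0643), HBR227 D (adjusted p = 0.0606) or N2 B (adjusted p = 0.0522) was left out.

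For npr-4 (WBGene00007635, chromosome X, 12536978 to 12551684, minus strand; protein-coding, up to 490 residues), a receptor gene best known for its response to FLP-18 in foraging and fat storage, the strains overlapped. It had 525, 717, 599 and 630 counts in HBR227 A to D and 495, 663, 555 and 669 counts in N2 A to D. Its level was 11.5, 11.2, 11.7 and 12.5 CPM in HBR227 and 11, 11, 11.3 and 12.5 CPM in N2. The log2 fold change was 0.03 ± 0.08 with a 95% interval of -0.15 to 0.21 (adjusted p = 0.812, edgeR), and the sign turned with 3 other scalings.

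The rarest of the 4 receptor transcripts was frpr-3 (WBGene00016149, chromosome V, 7771261 to 7773269, plus strand; protein-coding, 360 residues), whose product also responds to FLP-7 and to FLP-20, a peptide of touch neurons. It had 177, 223, 188 and 151 counts in HBR227 A to D and 185, 189, 161 and 235 counts in N2 A to D. Its level was 3.86, 3.48, 3.67 and 3.0 CPM in HBR227 and 4.12, 3.14, 3.28 and 4.38 CPM in N2, so that all HBR227 libraries except D fell inside the N2 range. The log2 fold change was -0.09 ± 0.14 with a 95% interval of -0.41 to 0.23 (adjusted p = 0.704, edgeR). Whether its change differed from those of the other receptor genes was not tested.

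**Figure D3:**
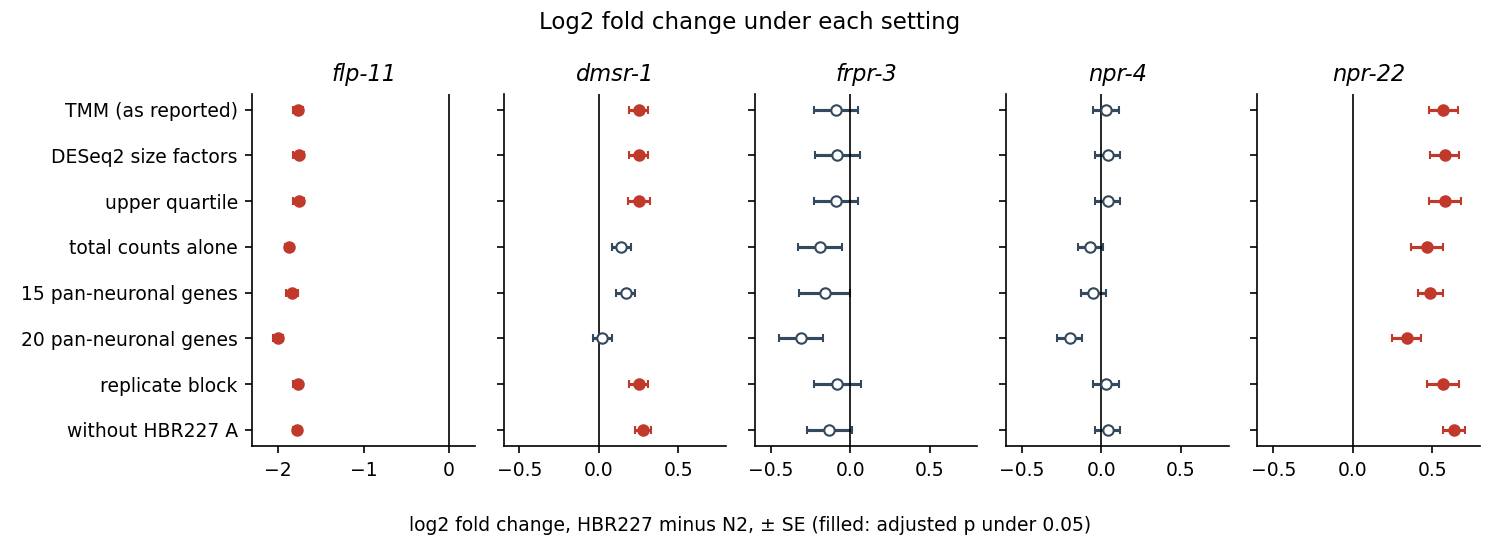
Log2 fold change of each gene, HBR227 minus N2, with its SE under the scaling reported in the text and 7 alternatives (rows); filled red points passed an adjusted p of 0.05 and open points did not. The flp-11 panel has a wider axis. flp-11 and npr-22 passed in every row, dmsr-1 lost its call in 3 of the scalings, and frpr-3 and npr-4 passed in none.

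Per length, the 5 transcripts kept 1 order in all 8 libraries, flp-11 first, then dmsr-1, npr-22, npr-4 and frpr-3. The level of dmsr-1 averaged 28.9 ± 1.73 CPM per kb in HBR227 and 24.4 ± 1.09 CPM per kb in N2 (SD, n = 4 each). Next, npr-22 averaged 9.73 ± 1.03 in HBR227 and 6.55 ± 0.286 in N2. For npr-4 the means were 5.64 ± 0.277 in HBR227 and 5.52 ± 0.331 in N2, and for frpr-3 they were 2.76 ± 0.290 in HBR227 and 2.93 ± 0.481 in N2, all in CPM per kb. In neither strain did the library values of 2 neighbours in this order overlap. The narrowest gap was between npr-22, with 6.13 as its lowest N2 value, and npr-4, with 6.0 as its highest N2 value.

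The ratio of ligand to receptor transcripts was lower in HBR227 for each of the 4 receptors. The flp-11 level per length was 1.98 to 2.33 times that of dmsr-1 in HBR227 libraries and 8.28 to 8.61 times in N2 libraries. Against npr-22 it was 5.44 to 7.58 times in HBR227 and 30.5 to 32.6 times in N2. The ratio to npr-4 was 10.3 to 11.4 in HBR227 and 36.4 to 39.1 in N2, and to frpr-3 it was 20.6 to 26.3 in HBR227 and 63.8 to 79.3 in N2. Set against all 4 receptors summed, flp-11 was 1.22 to 1.43 times as high in HBR227 and 5.19 to 5.28 times in N2. These ratios compare transcripts of the whole larva and say nothing of peptide or of the cells in which each receptor is made.

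**Figure D4:**
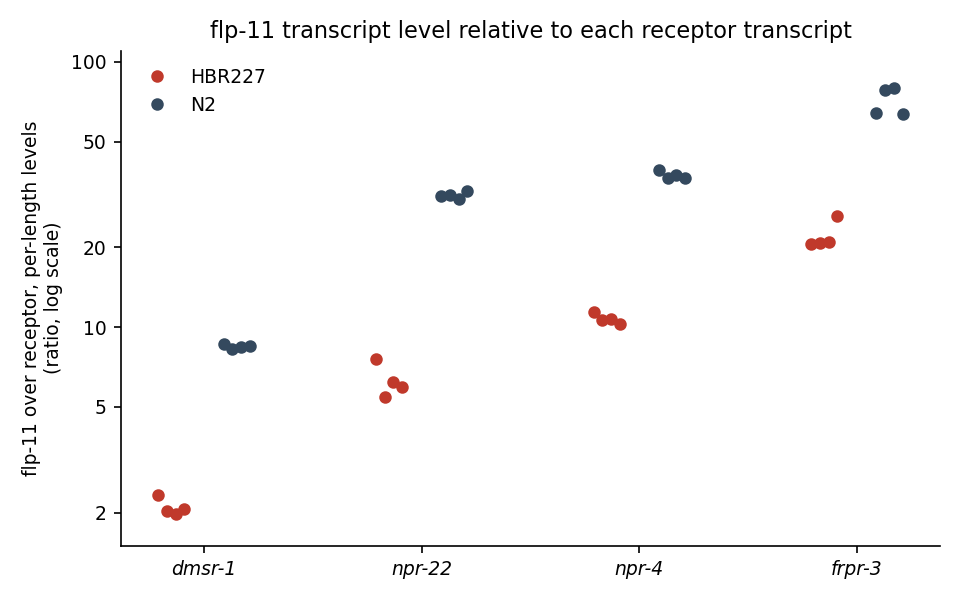
Ratio of the flp-11 level to each receptor's level per length (CPM per kb of exon; log axis) in the 4 libraries of HBR227 (red, left of each pair) and N2 (dark, right). For each receptor the HBR227 libraries lie below the N2 libraries, from a ratio near 2 for dmsr-1 in HBR227 to one of 63.8 or more for frpr-3 in N2.

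Among the receptor families to which the 4 belong, dmsr-1 had the highest level per length of 70 DMSR, FRPR and NPR genes in both strains. The gene npr-22 ranked 11th in HBR227 and 17th in N2, npr-4 ranked 22nd in HBR227 and 21st in N2, and frpr-3 ranked 44th in HBR227 and 38th in N2. By log2 fold change under the reported scaling npr-22 was the highest of the 65 receptor genes tested, dmsr-1 was 18th, npr-4 41st and frpr-3 50th. The first place was not firm. With limma voom and with the replicate block, frpr-16, at 0.55 as reported, stood at 0.58 against 0.57 for npr-22. It stood at 0.60 against 0.57 without HBR227 C and at 0.73 against 0.59 without N2 D. Without N2 A both were at 0.59. Of the other 61 receptor genes tested, 6 rose and 1 fell (11.5% called), with a median log2 fold change of 0.08.

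By family, none of 10 other DMSR genes was called in edgeR or limma voom (2 had an unadjusted p under 0.05 in each), DESeq2 called 1 of 11, and the median was 0.20. Without HBR227 A 3 of 11 rose. Of 18 other FRPR genes, frpr-18 (0.35 ± 0.09), frpr-19 (0.27 ± 0.08) and frpr-16 (0.55 ± 0.17) rose and frpr-14 (-0.80 ± 0.13) fell. Of 33 other NPR genes, npr-5 (0.24 ± 0.06), which like npr-4 encodes an FLP-18 receptor, npr-12 (0.32 ± 0.09) and npr-24 (0.37 ± 0.11) rose and none fell. The share called in edgeR was 22.2% of these FRPR genes and 9.09% of these NPR genes, against 21.5% of all genes tested. Without HBR227 A, 5 FRPR genes rose and 1 fell, and 7 NPR genes rose and 2 fell. In that fit 44.3% of all genes were called, a larger share than in any of these families. Without HBR227 C, HBR227 D or N2 B, no FRPR or NPR gene of these lists rose, and without N2 C no FRPR gene did. No FRPR or NPR gene other than npr-22 was called higher with total counts or with either set of pan-neuronal genes as the scale, and the NPR median then lay at -0.03, -0.17 (20 genes) and -0.02 (15 genes). Under these scales 2, 6 (20 genes) and 3 (15 genes) of the 33 NPR genes were called lower. Of all 17522 genes tested, 3111, 4912 (20 genes) and 1983 (15 genes) were called lower. The median of all genes was then -0.11, -0.23 (20 genes) and -0.08 (15 genes), below the NPR median each time. With the replicate letter as a block none of the 33 NPR genes was called, against 17.5% of all genes, and 11 had an unadjusted p under 0.05.

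**Figure D5:**
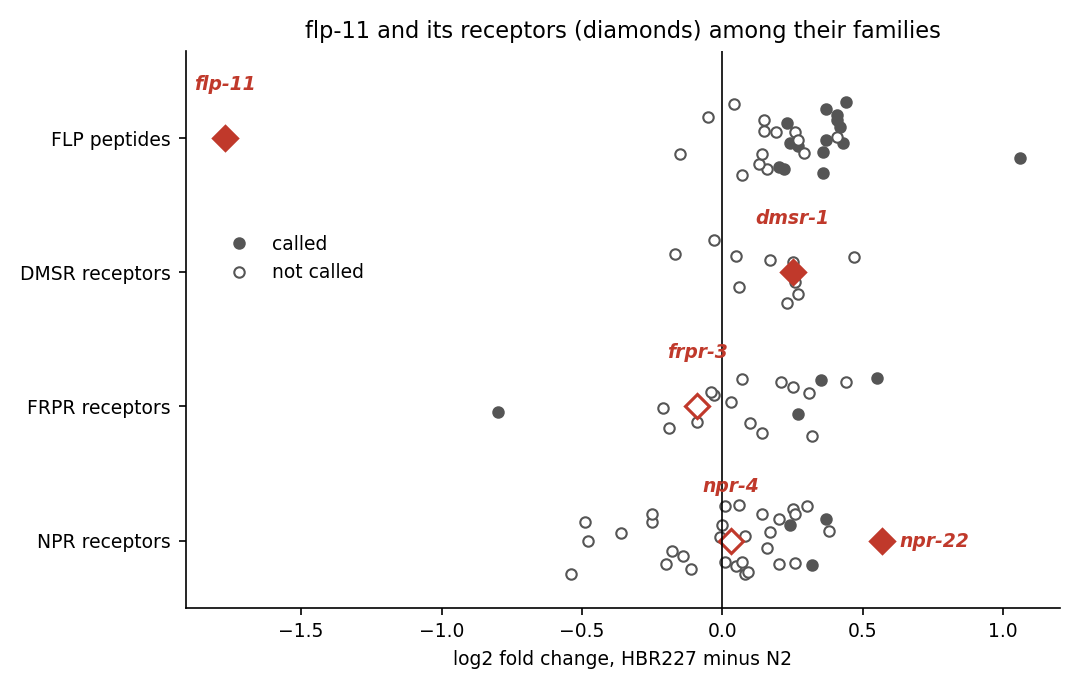
Log2 fold change, HBR227 minus N2, of flp-11 and the 4 receptor genes (red diamonds) and of the other tested genes of their families (circles); filled symbols passed an adjusted p of 0.05 and vertical scatter within a row only separates points. flp-11 lies at -1.77, left of every other FLP gene, and npr-22 at 0.57, right of every other receptor gene.

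The same receptors have other reported ligands. Of 5 such peptide genes, 2 rose in the fit with all libraries and none fell, where 11.2% of all genes tested rose. The log2 fold change was above 0 for all 5, except that lury-1 turned to -0.06 when scaled by 20 pan-neuronal genes. For NPR-4, flp-18 had 171, 180, 192 and 188 CPM in HBR227 A to D and 141, 128, 137 and 145 CPM in N2 A to D, with no overlap (0.41 ± 0.06, adjusted p = 0.00115, edgeR). For NPR-22 and FRPR-3, flp-7 had 41.2, 36, 34.9 and 34.6 CPM in HBR227 and 28.4, 27.3, 28.2 and 29.3 CPM in N2, again with no overlap (0.37 ± 0.07, adjusted p = 0.00529). The flp-7 call was lost with 20 pan-neuronal genes as the scale (0.15, adjusted p = 0.243) and with 15 (0.30, adjusted p = 0.0800), which left flp-18 as the 1 ligand gene called. The second NPR-22 ligand gene, lury-1, averaged 15.2 ± 1.39 CPM in HBR227 and 13.5 ± 1.63 CPM in N2 (SD, n = 4 each; 0.17 ± 0.11, adjusted p = 0.283).

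For DMSR-1, flp-13 had 39.8, 50.9, 56.9 and 52.5 CPM in HBR227 A to D and 46.3, 39.8, 41.7 and 39.8 CPM in N2 A to D. HBR227 A sat at the bottom of the N2 range and the other 3 above it (0.26 ± 0.10, adjusted p = 0.109, edgeR). The FRPR-3 ligand gene flp-20 had 64.4 CPM in HBR227 A, 34 to 38 CPM in HBR227 B to D and 31.1 to 34.2 CPM in N2 (0.41 ± 0.19, adjusted p = 0.161). Without HBR227 A all 5 ligand genes were called higher, with flp-13 at an adjusted p of 8.0e-05, flp-20 at 0.0242 (its log2 fold change then being 0.15) and lury-1 at 0.0391, in the fit that called 44.3% of all genes.

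Genes that make peptides ready for release gave calls in 1 direction under the reported scaling. Of 12 genes for peptide processing and dense-core vesicle release, 8 rose, 4 were not called and none fell, with a median log2 fold change of 0.22 and the same counts without HBR227 A. The share called was 66.7%, against 21.5% of all genes tested, and 44.3% of all genes without HBR227 A. Those with the smallest p were ida-1, a dense-core vesicle protein gene (0.34 ± 0.05), the proprotein convertase gene kpc-1 (0.27 ± 0.05), pghm-1, for peptide amidation (0.25 ± 0.05), and sbt-1, for a chaperone of the convertase EGL-3 (0.24 ± 0.05). The list summed to 6739 to 7359 CPM in HBR227 and 5476 to 6110 CPM in N2, which do not overlap. With total counts alone 6 rose and 1 fell, where 1174 of all 17522 genes rose and 3111 fell. With the 15 pan-neuronal genes outside this list as the scale 3 rose and none fell, where 926 of all genes rose and 1983 fell. With 20 pan-neuronal genes as the scale, 5 of which are on this list, 1 rose and 2 fell, where 550 of all genes rose and 4912 fell. In HBR227 the 20 genes summed to 6659 to 7237 CPM and the 15 to 1428 to 1653 CPM, so the 5 hold most of that scale. Scaling by 20 genes therefore draws this list toward 0 and cannot show whether it changed. Of the 20 pan-neuronal genes, 5 rose and none fell, with a median of 0.07, and without HBR227 A 11 rose and 1 fell, with a median of 0.12. The 15 pan-neuronal genes outside peptide processing had 1 rise, no fall and a median of 0.04, and they summed to 1428 CPM in HBR227 A, 1580 to 1653 CPM in HBR227 B to D and 1438 to 1518 CPM in N2. Their part in the rises of dmsr-1 and npr-22 was not tested beyond the scalings given above, under which npr-22 was called at 0.49 (15 genes) and 0.34 (20 genes). With 20 genes the median of all genes moved to -0.23, so that dmsr-1 at 0.02 and npr-4 at -0.20 both stood above it.

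Downstream of such receptors, genes of G protein signalling gave few calls. Of 17 tested, egl-8, a phospholipase C gene (0.30 ± 0.05), and ags-3, a G protein regulator gene (0.28 ± 0.05), rose, none fell and the median was 0.07. The share called was 11.8%, against 21.5% of all genes tested. Without HBR227 A 4 rose and 1 fell, in the fit that called 44.3% of all genes. With 20 pan-neuronal genes as the scale none rose and 7 fell, with a median of -0.16. In that fit 550 of all 17522 genes rose and 4912 fell, with a median of -0.23. The Go subunit gene goa-1, through which many inhibitory peptide receptors act, averaged 250 ± 6.09 CPM in HBR227 and 240 ± 3.88 CPM in N2 (SD, n = 4 each; 0.05 ± 0.04, adjusted p = 0.376), and was called lower, at -0.17, when scaled by 20 pan-neuronal genes.

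Across the 8 libraries, the transcripts most like flp-11 among 12912 genes of average log2 CPM of at least 1 were snet-1, nit-1, lmd-4, C14B9.2 and F01D5.1. Their Pearson correlations of log2 CPM with flp-11 were 0.994 to 0.999, a description only, since the 8 points fall into 2 groups by strain and the correlation mainly follows that split. The closest, snet-1, which encodes a secreted peptide acting in olfactory plasticity, averaged 50.9 ± 3.02 CPM in HBR227 and 139 ± 7.64 CPM in N2 (SD, n = 4 each; log2 fold change -1.45 ± 0.06, adjusted p = 3.0e-06, edgeR). Their sizes of fall differed widely, with -0.23 ± 0.04 for C14B9.2, -0.66 ± 0.05 for nit-1, -0.66 ± 0.07 for F01D5.1 and -2.54 ± 0.13 for lmd-4.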

How the data were processed

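RNA of whole arrested larvae was sequenced in 8 libraries. The authors deposited raw, unscaled counts per gene. Per the submitters' processing notes, Bowtie 0.12.2 and the builds WBcel235 and mm8 were named, without a role. For the counting program, its annotation and strand setting, and reads matching several genes, the sources used here say nothing. The table had 46433 rows. In 11 the gene name had become a date (0.0333% of counts), and these were left out.

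The count test was edgeR 4.0.16 under R 4.3.3 (TMM scaling, filterByExpr with a minimum count of 10, robust quasi-likelihood F test, no covariate), HBR227 minus N2 over all 8 libraries. P-values were Benjamini-Hochberg adjusted over the 17522 genes tested, and an adjusted p under 0.05 was called. Each SE is the log2 fold change over the square root of F, and intervals are 95%. Levels per length divide CPM by the union of annotated exons (Ensembl release 115, WBcel235). Coordinates are 1-based. The procedure was tested on simulated data with the same dispersion for all genes and no outlying library. That test does not cover a library that stands apart, as HBR227 A does.

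Alternatives were DESeq2 1.42.0, limma 3.58.1 voom, 5 other scalings, 2 other filters, a block for the replicate letter, and leaving out each library. Most counts in the scale of 20 pan-neuronal genes came from 5 peptide processing and release genes, so it does not measure neuron content alone. Scaling by 15 pan-neuronal genes, and the alternatives for gene lists and for named genes other than the members and aptf-1, were chosen after seeing the data. Members and gene lists were chosen with earlier results of these data known. The text names the members, aptf-1, all genes of the ligand and RIS lists, up to 4 called genes with the smallest p per other list, and the 5 genes most like flp-11. Other genes (goa-1, single cell type markers, neighbours of members, and FLP genes adjacent in rank) were chosen after their values were seen. No sequence is printed.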

Additional observations from a re-analysis of the deposited data

Results flagged for a closer look

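In 42 groups of 4 libraries (21 named genes in each strain), 4 held a library far from the other 3, with a gap to its nearest neighbour, relative to the whole range, above Dixon's critical value. Chance flags about 1 in 20 such groups. Of these, 3 were HBR227 A. For aptf-1 this library had 0.72 CPM, against 1.03 to 1.09 CPM in HBR227 B to D. For flp-20, a gene for FRPR-3 ligands, it had 64.4 CPM, against 34 to 38 CPM in the others. For unc-25, the GABA-synthesis gene, it had 49.9 CPM, against 75.5 to 76.6 CPM. Among N2 libraries, D had 70.8 CPM of unc-25, against 73.9 to 74.2 CPM in the other 3, a small difference in a tight group. None of flp-11, dmsr-1, frpr-3, npr-4 and npr-22 had such a library in either strain.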

How the results depend on the processing

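Under all 18 alternatives the falls of flp-11 and aptf-1 and the rise of npr-22 kept their direction and call. With each library left out, log2 fold changes ran from -1.79 to -1.73 for flp-11, -1.97 to -1.80 for aptf-1, 0.53 to 0.64 for npr-22, 0.22 to 0.29 for dmsr-1, -0.15 to 0.01 for frpr-3 and 0.00 to 0.08 for npr-4. The rise of dmsr-1 lost its call at 0.14 with total counts alone, 0.02 with 20 pan-neuronal genes and 0.17 with 15, and in 3 of the 8 fits with a library left out. The value of npr-4 turned to -0.07 with total counts alone, -0.20 with 20 pan-neuronal genes and -0.05 with 15, and frpr-3 turned to 0.01 without N2 D. Neither was called in any fit. These scalings moved the median of all genes to -0.11, -0.23 and -0.08. Calls over all genes, 3774 as reported, ran from 2423 (without HBR227 C) to 7906 (without HBR227 A). They moved by over 1.5 times also without N2 B (2430) or HBR227 D (2510), and with an adjusted p under 0.01 (1722). The cause was not tested. With the replicate letter as a block, 3065 genes were called, dmsr-1 kept its call at 0.25 (adjusted p = 0.0317) and npr-22 at 0.57 (adjusted p = 0.0140), but libraries with the same letter did not deviate together (correlations -0.0144 to 0.142), and not every library correlated best with its own letter. The level of flp-11 per length was 67.0 in HBR227 and 228 in N2 CPM per kb of the longest transcript. Among the members frpr-3 had the fewest counts, at 151 to 223 counts per HBR227 library and 161 to 235 per N2 library. Of the other named genes, none that was called as reported turned its direction except dgk-5 with 20 pan-neuronal genes (-0.02). Calls were lost, out of 18 alternatives, in 13 for npr-24 and 12 for frpr-19. For dgk-5 the call was lost in 12, besides the fit in which it turned. The number was 10 for tmem-135, 9 each for hlh-1, npr-5 and frpr-16, 8 for npr-12 and 7 for frpr-18. It was 3 for flp-21 and at most 2 for each other named gene that was called. Among those not called, the 20-gene scale turned lury-1 to -0.06, unc-47 to -0.13, unc-46 to -0.22, srsx-18 to -0.04 and goa-1 to -0.17, the 15-gene scale turned unc-46 to -0.08 and goa-1 to -0.02, and total counts alone turned unc-46 to -0.09 and goa-1 to -0.05. With a library left out, unc-25 ran from -0.13 to 0.05 (above 0 without HBR227 A), unc-46 from -0.09 to 0.13 (below 0 without HBR227 C, HBR227 D or N2 B) and srsx-18 from -0.01 to 0.33 (below 0 without HBR227 C).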

Other observations

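Genes next to the receptor genes were looked at after the members' values were seen. Over all genes tested, 11.2% rose and 10.4% fell. Within 25 kb of npr-22, 3 genes were tested, of which 1 rose and none fell, with log2 fold changes of 0.01 to 0.30. Near dmsr-1, 7 genes were tested, none rose and 1 fell, with values from -0.67 to 0.43. Near frpr-3, 9 genes were tested, and 1 rose and 1 fell. The one that rose was flp-21, itself a peptide gene (0.24 ± 0.05, adjusted p = 0.0122, edgeR). Around aptf-1, 3 of 7 genes rose and none fell, among them atg-16.2, an autophagy gene, at 0.37 ± 0.07 (adjusted p = 0.00534) and dgk-5, which overlaps 2.90% of the aptf-1 exon length on the other strand, at 0.21 ± 0.06 (adjusted p = 0.0431).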
